A study of Mus musculus with 4 samples.

Results

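The 9 genes described here encode the machinery by which antigen-presenting cells display peptides on MHC class II molecules. They were taken by name from a list that holds *H2-Aa*, *H2-Ab1*, *H2-Eb1*, *H2-DMa*, *H2-DMb1*, *H2-Oa*, *H2-Ob*, *Cd74* and *Ciita*, and all 9 were found among the 23946 genes of the series. Their expression was compared in calvarial bones of mice at postnatal day 21, by bulk RNA-seq. The 4 libraries came from wild-type frontal bone, wild-type parietal bone, Twist1+/- frontal bone and Twist1+/- parietal bone, with 1 library of each. All mice were labelled C57BL/6J. The Twist1+/- animals carried 1 working copy of *Twist1*, a bHLH transcription factor of the skeletal mesenchyme, and no other allele or treatment is named. The labels give 12 mice for each strain and do not say how many of them entered a library. The study describes the bones used for RNA as including pericranium, bone plate and dura mater, and not as a purified cell type. Neural crest cells form the frontal bone, whereas the parietal bone is a derivative of mesoderm.

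An MHC class II molecule is a heterodimer of an alpha and a beta chain. Newly made chains assemble on the invariant chain, the product of *Cd74*, which blocks the groove and directs the complex to endosomes. Proteases there trim the invariant chain, and the chaperone H2-DM exchanges the remaining fragment for antigenic peptides, while H2-O restrains H2-DM. B cells, dendritic cells and activated macrophages express these genes, and the transactivator CIITA drives their transcription through a promoter module made of an X box, bound by RFX, and a Y box, bound by NF-Y. The C57BL/6 strain carries the b haplotype, in which the alpha chain gene of the I-E molecule is defective, so that its classical class II molecule is I-A, made by *H2-Aa* and *H2-Ab1*.

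The promoters of these genes are shown first because the shared module is written in them. Of the 9 genes, 6 were matched by symbol in the RefSeq promoter table (build GRCm38.p6), with 7 windows that run from 250 bases before to 50 bases after an annotated start. The X box core was searched for as AACNGATG and the Y box core as ATTGG, on both strands, and matches are printed in capitals, so that CCAAT marks a Y core on the opposite strand. The bases from 190 to 11 before the start are printed on the strand of the gene for *H2-Aa* (chr17:34287834-34288013, reverse strand), *H2-Eb1* (chr17:34305677-34305856, forward), *H2-DMb1* (chr17:34153001-34153180, forward), *H2-Ob* (chr17:34238715-34238894, forward) and *H2-Oa* (chr17:34092189-34092368, forward).
H2-Aa: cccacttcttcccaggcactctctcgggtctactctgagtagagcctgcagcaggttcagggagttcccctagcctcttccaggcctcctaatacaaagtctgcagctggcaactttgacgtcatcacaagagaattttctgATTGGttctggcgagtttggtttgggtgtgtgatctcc
H2-Eb1: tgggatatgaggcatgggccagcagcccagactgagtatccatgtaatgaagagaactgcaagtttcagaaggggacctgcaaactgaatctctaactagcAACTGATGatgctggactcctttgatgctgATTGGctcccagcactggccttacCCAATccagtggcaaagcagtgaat
H2-DMb1: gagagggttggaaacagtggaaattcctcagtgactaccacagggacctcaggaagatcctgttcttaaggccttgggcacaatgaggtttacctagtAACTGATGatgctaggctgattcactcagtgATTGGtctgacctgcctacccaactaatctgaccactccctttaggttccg
H2-Ob: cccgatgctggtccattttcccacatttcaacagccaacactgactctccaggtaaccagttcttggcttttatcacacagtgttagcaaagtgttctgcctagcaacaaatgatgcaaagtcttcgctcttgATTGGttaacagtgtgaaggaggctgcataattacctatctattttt
H2-Oa: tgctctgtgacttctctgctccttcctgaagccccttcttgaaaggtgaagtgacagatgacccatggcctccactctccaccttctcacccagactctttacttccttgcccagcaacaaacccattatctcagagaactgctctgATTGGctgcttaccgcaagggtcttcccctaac
A forward Y core began 48 bases before the start in *H2-Aa*, 59 in *H2-Eb1*, 61 in *H2-DMb1*, 57 in *H2-Ob* and 43 in *H2-Oa*. The Y core alone was frequent, with a match in 37.4% of all 32851 windows of the table. The X core matched in 2.32% of the windows and in 2 of the 6 matched genes, *H2-Eb1* and *H2-DMb1*. In these 2 genes the X core stood 22 and 23 bases upstream of the Y core. An X core followed by a Y core at a distance of 10 to 30 bases was present in 7 windows of the whole table (0.0213%), and 4 of them belonged to the class II genes *H2-DMb1*, *H2-DMb2*, *H2-Eb1* and *H2-Eb2*. The other 3 were those of *BC051142*, *H2-M10.4* and *Gm35697*. Neither core matched in 1 of the 2 windows of *H2-DMa*, and the other held a Y core only, 198 bases before its start. A match is a run of letters and no measure of binding, and a window without one only lacks these exact letters.

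Before the values are given, the libraries need a description. The values are FPKM, a count of fragments divided by transcript length and by the number of mapped fragments, which allow levels of different genes to be compared because they are given per length. With 1 library per condition no difference has a replicate check, no p-value is given, and every value below describes these 4 libraries. The depth of each library is unknown from FPKM. Genes above 0 numbered 18063 to 19452 per library. All 8 osteoblast markers, *Bglap* and *Sp7* among them, were above 1 FPKM in every library. *Twist1* was at 59.0 FPKM in the wild-type frontal library and 30.4 FPKM in Twist1+/- frontal bone, and at 52.5 FPKM in the wild-type parietal library. The library labelled Twist1+/- parietal had 50.7 FPKM, so that *Twist1* did not separate it from its wild-type counterpart. That library is therefore called by its label throughout. A gene is called past 3-fold when its FPKM ratio between 2 libraries was above 3 and the larger of both values reached 1 FPKM.

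The class II genes spanned a wide range of levels. *Cd74*, *H2-Aa*, *H2-Ab1* and *H2-Eb1* were the most abundant of the 9 in every library, and *Ciita* was the lowest in every library, below 1 FPKM throughout. The summed level of the 9 genes was 341 FPKM in the wild-type frontal library, 175 FPKM in the wild-type parietal library, 349 FPKM in the Twist1+/- frontal library and 459 FPKM in the labelled Twist1+/- parietal library. The frontal libraries were thus close to each other, while the parietal libraries gave the lowest and the highest sum. The FPKM of all genes did not add up to the same total in each library. As a share of that total the 9 genes held 0.0688%, 0.0249%, 0.0672% and 0.0705% in the same order. By this measure the labelled Twist1+/- parietal library was close to the frontal libraries, and only wild-type parietal bone stood apart.

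**Figure D1:**
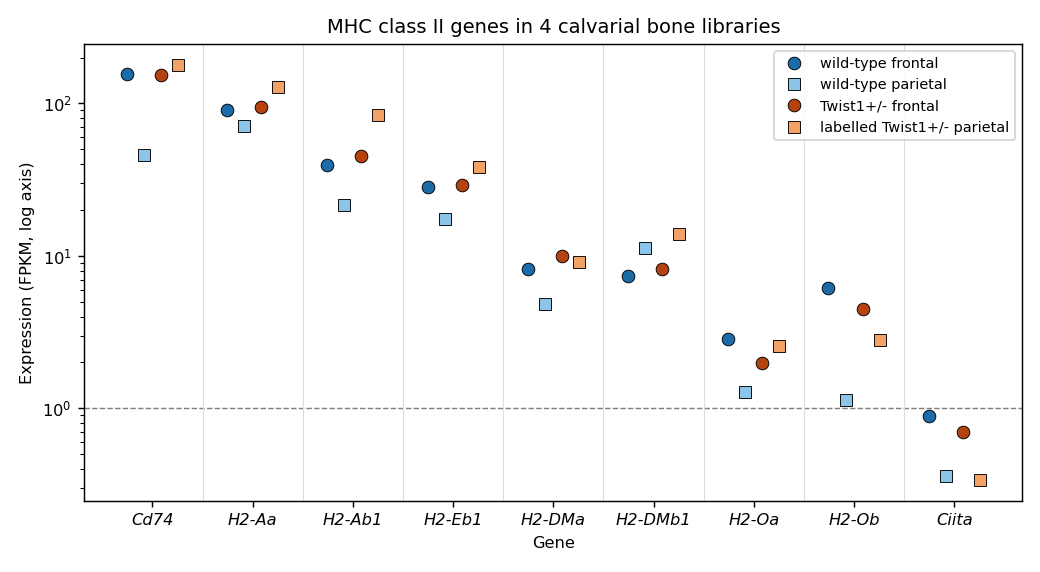
Expression of the 9 MHC class II genes in FPKM on a log axis, with 1 point for each of the 4 libraries and a dashed line at 1 FPKM. Wild-type parietal bone had the lowest point for 7 of the 9 genes, the exceptions being *H2-DMb1*, which was lowest in wild-type frontal bone, and *Ciita*, which was lowest in the labelled Twist1+/- parietal library.

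*Cd74*, the invariant chain gene, was at 157 FPKM in the wild-type frontal library, 45.8 FPKM in the wild-type parietal library, 154 FPKM in the Twist1+/- frontal library and 179 FPKM in the labelled Twist1+/- parietal library. Only the wild-type parietal library stood apart, and the other 3 differed by little. Among all genes of a library *Cd74* held rank 347 in both frontal libraries, rank 1801 in the wild-type parietal library and rank 402 in the labelled Twist1+/- parietal library. Relative to the chains that its product accompanies, *Cd74* was 0.983 times the summed level of *H2-Aa*, *H2-Ab1* and *H2-Eb1* in wild-type frontal, 0.909 times in the Twist1+/- frontal library, 0.714 times in the labelled Twist1+/- parietal and 0.415 times in wild-type parietal bone. The low *Cd74* value of wild-type parietal bone was thus low also against the chains of the same library.

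The chain genes were likewise lowest in wild-type parietal bone and highest in the labelled Twist1+/- parietal library. *H2-Aa*, the alpha chain of I-A, was at 91.2 FPKM in the wild-type frontal library, 71.3 FPKM in the wild-type parietal library, 94.7 FPKM in the Twist1+/- frontal library and 129 FPKM in the labelled Twist1+/- parietal library. *H2-Ab1*, its beta chain partner, was at 39.7, 21.5, 45.4 and 84.4 FPKM in the same order. *H2-Eb1*, the beta chain of I-E, was at 28.3, 17.5, 29.4 and 38.0 FPKM. For each of the 3 genes wild-type parietal bone was lowest, the frontal libraries lay in the middle and the labelled Twist1+/- parietal library was highest. The highest value exceeded the lowest 1.80-fold for *H2-Aa*, 3.93-fold for *H2-Ab1* and 2.18-fold for *H2-Eb1*. The I-A partners did not keep a fixed proportion, as *H2-Aa* over *H2-Ab1* was 2.30 in the wild-type frontal library, 3.32 in the wild-type parietal library, 2.09 in the Twist1+/- frontal library and 1.52 in the labelled Twist1+/- parietal library. *H2-Aa* over *H2-Eb1* varied less, from 3.22 to 4.08.

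Of the class II genes outside the 9, the I-E alpha gene was listed as the pseudogene *H2-Ea-ps*, at 0.0407 FPKM in the wild-type frontal library and 0.141 FPKM in the wild-type parietal library and listed at 0 with both Twist1+/- labels. *H2-Eb2* was at 0.0638 to 0.153 FPKM. *H2-Eb1* was therefore the only I-E gene above 1 FPKM.

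The peptide-loading genes were lower than every chain gene in each library. *H2-DMa*, the alpha subunit of the peptide exchange factor H2-DM, was at 8.16 FPKM in the wild-type frontal library, 4.83 FPKM in the wild-type parietal library, 9.94 FPKM in the Twist1+/- frontal library and 9.09 FPKM in the labelled Twist1+/- parietal library. *H2-DMb1*, a beta subunit of the same factor, was at 7.43, 11.3, 8.16 and 13.8 FPKM in that order. *H2-DMb1* was higher in both parietal libraries than in both frontal libraries, and no other gene of the 9 had this order. The ratio of *H2-DMa* to *H2-DMb1* was 1.10 and 1.22 in the frontal libraries, 0.430 in the wild-type parietal library and 0.657 in the labelled Twist1+/- parietal library.

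*H2-DMb1* has a close copy, *H2-DMb2*, and 19.2% of the 1323 windows of 75 bases in its longest coding transcript also occur in transcripts of *H2-DMb2*. None of the windows of the other 8 genes was found in a coding transcript of another gene. Only coding transcripts were searched, in their own direction, so overlaps on opposite strands and noncoding transcripts were not covered. *H2-DMb2* was at 2.26 FPKM in the wild-type frontal library, 0.699 FPKM in the wild-type parietal library, 3.35 FPKM in the Twist1+/- frontal library and 3.09 FPKM in the labelled Twist1+/- parietal library. *H2-DMb1* exceeded it 16.1-fold in wild-type parietal bone and 2.44-fold to 4.48-fold in the other libraries. How the reads were divided between the copies is not known, so the values of each are uncertain, and their sum was 9.69, 12.0, 11.5 and 16.9 FPKM in the order given. In the sum the labelled Twist1+/- parietal library was still the highest, and *H2-DMa* over the sum was still lower in the parietal libraries (0.405 and 0.537) than in the frontal libraries (0.843 and 0.864).

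*H2-Oa* and *H2-Ob* encode the subunits of H2-O, which in B cells and some dendritic cells holds H2-DM in check. *H2-Oa* was at 2.86 FPKM in the wild-type frontal library, 1.29 FPKM in the wild-type parietal library, 1.99 FPKM in the Twist1+/- frontal library and 2.55 FPKM in the labelled Twist1+/- parietal library. *H2-Ob* was at 6.18, 1.13, 4.46 and 2.81 FPKM. Unlike the chains, both were highest in wild-type frontal bone, and *H2-Ob* was lower in each parietal library than in each frontal library. The summed H2-DM genes exceeded the summed H2-O genes 1.72-fold in wild-type frontal bone, 4.28-fold in the labelled Twist1+/- parietal library and 6.64-fold in wild-type parietal bone, with Twist1+/- frontal bone between the first 2, where the H2-DM sum is that of *H2-DMa* and *H2-DMb1*.

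*Ciita*, the master regulator of the class II genes, was at 0.888 FPKM in the wild-type frontal library, 0.359 FPKM in the wild-type parietal library, 0.700 FPKM in the Twist1+/- frontal library and 0.339 FPKM in the labelled Twist1+/- parietal library. Its level was low in both parietal libraries, whereas the chain genes were lowest in one of them and highest in the other. Its counting error cannot be stated from FPKM.

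The comparison of the parietal bones asks what the Twist1+/- label goes with in mesoderm-derived bone. Of the 9 class II genes, 8 were higher in the labelled Twist1+/- parietal library than in wild-type parietal bone, and *Ciita* was at 0.943 times its wild-type value. Of these, 2 were past 3-fold and higher, *H2-Ab1* (3.93-fold, a log2 ratio of 1.97) and *Cd74* (3.91-fold, a log2 ratio of 1.97), and none was past 3-fold and lower. Over all 13914 genes that reached 1 FPKM in the higher library, 5.25% were past 3-fold and higher and 2.94% past 3-fold and lower. The other log2 ratios were 1.31 for *H2-Ob*, 1.12 for *H2-Eb1*, 0.98 for *H2-Oa*, 0.91 for *H2-DMa*, 0.85 for *H2-Aa* and 0.30 for *H2-DMb1*. The median log2 ratio of the 9 genes was 0.98, against -0.06 over all genes at 1 FPKM.

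This comparison carries a trend with base composition. Over 12554 genes the log2 ratio was higher at higher GC content of the transcript, with a Spearman rho of 0.546 as a description across genes of the same pair of libraries, from a median of -0.59 in the lowest of 20 GC groups to 0.70 in the highest. The class II genes had GC contents of 46.1% (*H2-Ob*) to 57.4% (*H2-Ab1*). After subtraction of the median of genes of similar GC content, the log2 ratio was 1.42 for *H2-Ab1* and 1.52 for *Cd74*, both then under 3-fold, and 1.75 for *H2-Ob*, then past it. *H2-Aa* stayed at 0.85 and *H2-Eb1* went to 0.88, while *H2-DMb1* came to 0.10 and *Ciita* to -0.54. The same 8 genes kept a ratio above 0, with a median of 0.85 over the 9. The part of library base composition in the class II differences was not tested further.

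**Figure D2:**
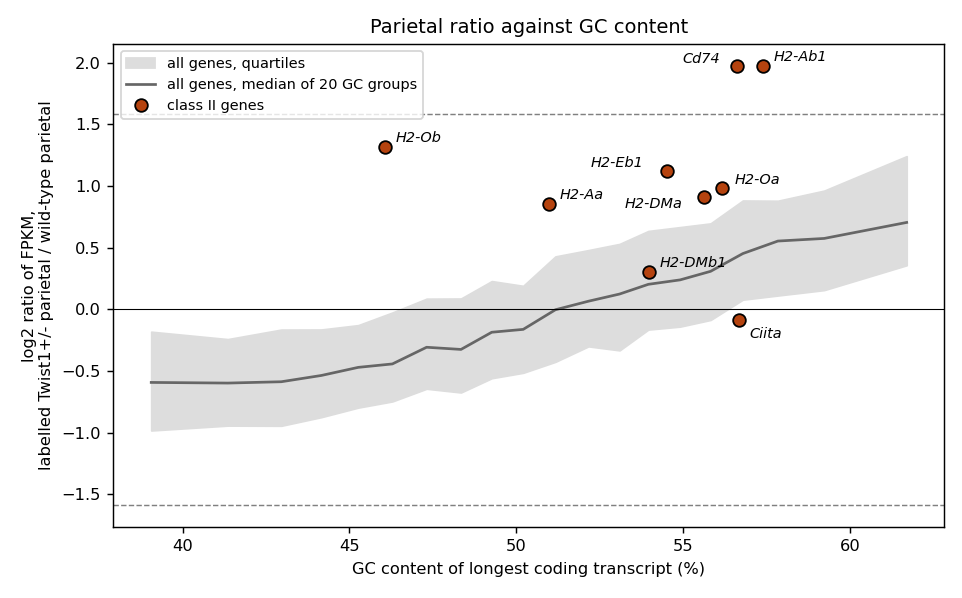
Log2 ratio of FPKM between the labelled Twist1+/- and the wild-type parietal library (y axis) against GC content in percent (x axis). The grey line and band are the median and quartiles of all genes in 20 GC groups, points are the class II genes, and dashed lines mark 3-fold. *H2-Ob* lies furthest above genes of its GC content (by 1.75), and *Ciita* lies below them (by -0.54).

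The comparison of the frontal bones asks the same question in neural crest-derived bone. Here 5 of the 9 genes were higher and 4 lower in Twist1+/- bone, with log2 ratios from -0.52 (*H2-Oa*) to 0.28 (*H2-DMa*). None was past 3-fold in either direction, where 3.17% of 14341 genes were past 3-fold and higher and 0.725% past 3-fold and lower. *Cd74* had a log2 ratio of -0.02, which turned to 0.02 when the libraries were scaled to the same median ratio and to 0.09 when scaled to the same upper quartile, so that no direction can be given for it. The chain genes were at 0.05 for *H2-Aa*, 0.19 for *H2-Ab1* and 0.06 for *H2-Eb1*. Scaled to the same *Ptprc* value, *H2-Aa* (-0.082), *H2-Eb1* (-0.081) and *H2-DMb1* (-0.0014) also turned, so that no direction can be given for these either. The median over the 9 was 0.05, against -0.04 over all genes.

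The comparison of wild-type parietal with wild-type frontal bone asks how bones of different embryonic origin differ. It shares the wild-type parietal library with the comparison of parietal bones, so the 2 comparisons are not independent of each other. In wild-type parietal bone 8 of the 9 genes were lower and *H2-DMb1* was higher (a log2 ratio of 0.60). Past 3-fold and lower were *H2-Ob* (5.45-fold, a log2 ratio of -2.45) and *Cd74* (3.42-fold, -1.77), and none was past 3-fold and higher. Over 14214 genes 9.2% were past 3-fold and lower and 4.07% past 3-fold and higher. *Ciita* had a log2 ratio of -1.30, *H2-Oa* of -1.15, *H2-Ab1* of -0.89, *H2-DMa* of -0.76, *H2-Eb1* of -0.69 and *H2-Aa* of -0.36. The median over the 9 was -0.89, against -0.01 over all genes. The trend with GC content was weaker in this pair (rho of -0.134), and its subtraction put *Cd74* at -1.57, just under 3-fold, and *H2-Ob* at -2.54. When the libraries were scaled to the same level of the leukocyte gene *Ptprc*, *Cd74* stood at -0.63 and *H2-Ob* at -1.30, neither past 3-fold, *H2-Aa* (0.79), *H2-Ab1* (0.26), *H2-Eb1* (0.45) and *H2-DMa* (0.39) turned above 0, *H2-DMb1* passed 3-fold at 1.74, and the median over the 9 turned to 0.26.

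Between the libraries labelled Twist1+/-, parietal bone was higher than frontal bone for 6 genes and lower for 3, with none past 3-fold. Of 14305 genes 0.846% were past 3-fold and higher and 3.24% past 3-fold and lower in that parietal library. The log2 ratios ran from -1.05 for *Ciita* and -0.67 for *H2-Ob* to 0.76 for *H2-DMb1* and 0.90 for *H2-Ab1*. *Cd74* was at 0.22 and changed sign, to -0.03, after subtraction of the GC medians. The trend with GC content was also present in this pair (rho of 0.416). Scaled to the same *Ptprc* value, *H2-DMa* turned from -0.13 to 0.90 and *H2-Ob* from -0.67 to 0.36, *H2-Ab1* (1.92) and *H2-DMb1* (1.79) passed 3-fold, and the median went from 0.35 to 1.38.

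**Figure D3:**
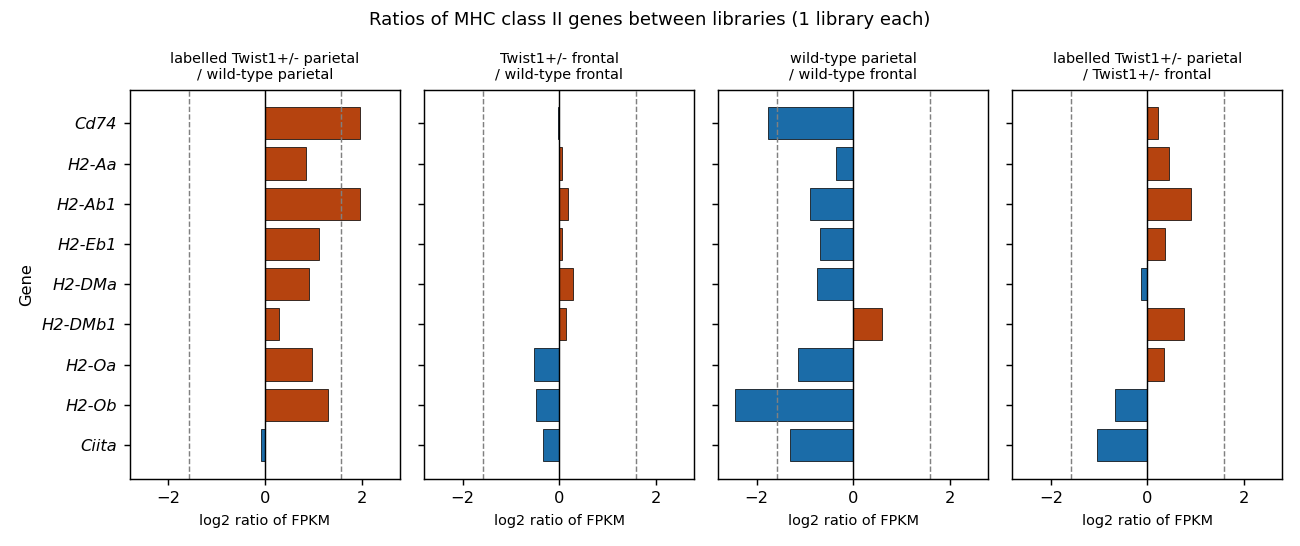
Log2 ratios of FPKM of the 9 class II genes in the 4 comparisons, 1 library against 1, with dashed lines at 3-fold. Bars to the right are higher in the first library named. *Cd74* and *H2-Ab1* pass the line in the first panel, *H2-Ob* and *Cd74* in the third, and no gene passes it in the other panels.

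Bulk RNA does not show which cells carried these transcripts, and fewer cells of a type cannot be told apart from less RNA per cell. Markers of the cell types that present antigen were therefore read in the same libraries. *Ptprc*, which encodes the pan-leukocyte antigen CD45, was at 21.9 FPKM in the wild-type frontal library, 9.89 FPKM in the wild-type parietal library, 24.0 FPKM in the Twist1+/- frontal library and 11.8 FPKM in the labelled Twist1+/- parietal library. It was low in both parietal libraries, as *Ciita* was. Per unit of *Ptprc* the summed chains stood at 7.29 in the wild-type frontal library, 11.2 in the wild-type parietal library, 7.05 in the Twist1+/- frontal library and 21.3 in the labelled Twist1+/- parietal library, while *Ciita* per unit of *Ptprc* varied only from 0.0287 to 0.0406. Relative to *Ptprc* wild-type parietal bone was therefore not low in chains, and *Cd74* per unit of *Ptprc* was 4.63 there against 6.41 to 15.2 in the other libraries. *Ptprc* has a GC content of 41.9%, below that of each of the 9 genes. After subtraction of the GC medians its log2 ratio went from 0.26 to 0.85 between the parietal bones. Between the libraries labelled Twist1+/- it went from -1.02 to -0.62. *Ciita*, under 1 FPKM in every library, has a GC content of 56.7%. In the same 2 pairs its log2 ratio went the other way, from -0.08 to -0.54 and from -1.05 to -1.30. The values per unit of *Ptprc* were not corrected for GC content, and the part of base composition in them was not tested.

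The 10 B cell markers were all lowest in wild-type parietal bone. Their summed level was 208 FPKM in the wild-type frontal library, 61.3 FPKM in the wild-type parietal library, 187 FPKM in the Twist1+/- frontal library and 151 FPKM in the labelled Twist1+/- parietal library. Between the wild-type bones 6 of the 9 that reached 1 FPKM were past 3-fold and lower in parietal bone, led by *Ms4a1*, which encodes CD20 (a log2 ratio of -3.88), and including the antigen receptor subunit *Cd79a* (-2.23). Between the parietal bones 3 of 8 were past 3-fold and higher in the labelled Twist1+/- library, *Pax5* (2.91), *Ms4a1* (2.32) and *Cd22* (1.66), and the median was 1.45. With GC medians subtracted *Cd22* was at 1.53, under 3-fold, and the median was 1.40. *Cd79b*, the most abundant of the list, was at 74.2, 28.1, 70.8 and 56.1 FPKM in the order of libraries used above. *H2-Ob* per unit of *Cd79a* kept within 0.0877 to 0.123 over the 4 libraries, a narrower range than that of *H2-Ob* itself, whereas the summed chains per unit of *Cd79a* ran from 3.16 to 10.2. Of the 10 markers only *Cd79a* was used as a divisor, and *Ms4a1* (-3.88) differed more between the wild-type bones than *H2-Ob* (-2.45). *H2-Ob* and *Cd79a* also differ in GC content (46.1% and 54.9%), for which these ratios were not corrected. Among 5 markers of early B cell progenitors only *Rag1* was past 3-fold and lower in wild-type parietal bone (-1.83), and *Igll1*, the highest of them, was at 44.0 FPKM there against 22.9 to 24.9 FPKM elsewhere. The part of B cell content in the class II differences was not tested.

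The 10 dendritic cell markers summed to 38.2 FPKM in the wild-type frontal library, 17.4 FPKM in the wild-type parietal library, 34.8 FPKM in the Twist1+/- frontal library and 25.1 FPKM in the labelled Twist1+/- parietal library. Past 3-fold and lower in wild-type parietal than in wild-type frontal bone were *Siglech* (-1.93), a plasmacytoid cell receptor, *Clec9a* (-1.87) and *Cd209a* (-1.74), and *Cd209a* was also past 3-fold between the parietal bones (1.65). The transcription factor *Irf8*, the highest of the list, had log2 ratios of -1.56 and 0.84. Of the 9 dendritic markers that reached 1 FPKM between the wild-type bones, 7 were lower and 2 higher in parietal bone, *Batf3* (0.85) and *Itgax* (0.19). Between the parietal bones 6 of 8 were higher in the labelled Twist1+/- library, and *Zbtb46* (-0.72) and *Batf3* (-0.36) were lower. Macrophage markers went the other way, as all 10 measured were highest in wild-type parietal bone, with sums of 427, 786, 383 and 587 FPKM in the order of libraries used above. *Cd68*, the highest of them, was at 247 FPKM in the wild-type parietal library, and the mannose receptor gene *Mrc1* was past 3-fold and lower in the labelled Twist1+/- than in the wild-type parietal library (-1.60), a call lost at -1.01 after subtraction of the GC medians. The 6 T cell markers summed to 5.86 FPKM in the wild-type parietal library and to 10.1 FPKM or more in the other libraries, and *Cd3g* was past 3-fold in both comparisons (-1.92 between the wild-type bones, 2.37 between the parietal bones). *Cd3e* was past 3-fold and lower in wild-type parietal than in wild-type frontal bone (-2.95). *Cd4* did not follow them: it was the highest T cell marker in wild-type parietal bone, at 3.15 FPKM, with log2 ratios of 0.32 between the wild-type bones and -0.54 between the parietal bones. *Lck*, the highest over the 4 libraries, was at 1.30 FPKM in that library. *Cd207*, the defining Langerhans cell gene, was at most 0.339 FPKM in every library. The 5 epithelial markers summed to 12.5 FPKM in the wild-type frontal library, 5.78 FPKM in the wild-type parietal library, 48.5 FPKM in the Twist1+/- frontal library and 41.2 FPKM in the labelled Twist1+/- parietal library, and *Epcam*, which Langerhans cells share with epithelia, was past 3-fold and higher with the Twist1+/- label in parietal (2.27) and in frontal bone (2.01). The part of these cell types in the class II differences was not tested.

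**Figure D4:**
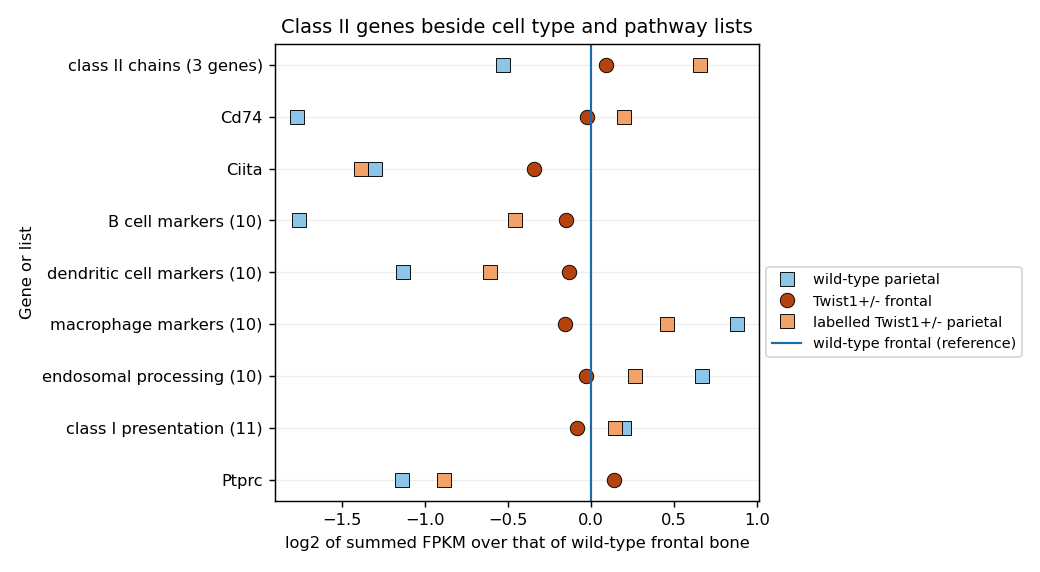
Log2 of the summed FPKM of a gene or list over its sum in wild-type frontal bone (vertical line), with 1 point for each of the other 3 libraries. In wild-type parietal bone the chains, *Cd74*, *Ciita*, *Ptprc*, the B cell and the dendritic cell markers lie left of the line and the macrophage and processing lists lie right of it, and in the class I list *B2m* makes up most of the sum.

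The endosomal steps of the pathway did not share the pattern of the chains. The 10 endosomal processing genes, which hold the cathepsins that trim the invariant chain, legumain, the thiol reductase gene *Ifi30*, the protease gene *Sppl2a* and the lysosomal membrane genes *Lamp1* and *Lamp2*, were all higher in wild-type parietal than in wild-type frontal bone. *Ifi30* was past 3-fold there, at 304 FPKM against 99.3 FPKM, a log2 ratio of 1.62, and no other gene of this list was past 3-fold in any comparison. *Ctsd*, the most abundant, was at 241 to 355 FPKM. Between the parietal bones 8 of the 10 were lower in the labelled Twist1+/- library, with a median log2 ratio of -0.53, opposite in sign to the median of the class II genes. With GC medians subtracted, 6 of the 9 that have a GC value were lower and 3 higher, with a median of -0.26, against -0.42 for the same 9 before.

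The factors that bind the class II promoter module were closer to even. None of the 7 genes for RFX, NF-Y and CREB1 was past 3-fold in any comparison, and their medians lay between -0.17 and -0.04, although the median between the parietal bones turned from -0.17 to 0.26 after subtraction of the GC medians. The largest difference was that of *Nfya*, an NF-Y subunit, at 22.7 FPKM in the wild-type frontal library and 9.26 FPKM in the wild-type parietal library (-1.29), and *Nfyb* was at 16.6 to 19.6 FPKM. In the interferon-gamma axis, through which *Ciita* is induced outside B cells and dendritic cells, *Ifng* was at 0.0643 to 0.0812 FPKM in 3 libraries and listed at 0 in the labelled Twist1+/- parietal library. Its receptor gene *Ifngr1* was the highest of this list, at 53.5 to 99.2 FPKM. *Socs1*, a feedback inhibitor, was the only gene of this list past 3-fold, in the labelled Twist1+/- parietal against the Twist1+/- frontal library (1.74), a call lost at 1.32 with GC medians subtracted. Of 7 turnover and costimulation genes, *Il10*, whose product lowers surface class II, was past 3-fold in both comparisons that hold wild-type parietal bone, at 4.78 FPKM there against 0.139 FPKM in the wild-type frontal library and 0.738 FPKM in the labelled Twist1+/- parietal library. *March1*, a ubiquitin ligase that removes class II from the surface, was at 1.16 FPKM in the labelled Twist1+/- parietal library and 2.24 to 3.41 FPKM elsewhere, and *March8* was the highest of this list.

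MHC class I presentation offers the nearest comparison. Of its 11 genes, 8 were lowest in wild-type parietal bone and 8 were highest in the labelled Twist1+/- parietal library. The heavy chain gene *H2-K1* was at 124 FPKM in the wild-type frontal library, 61.7 FPKM in the wild-type parietal library, 128 FPKM in the Twist1+/- frontal library and 162 FPKM in the labelled Twist1+/- parietal library, and *H2-D1* was at 190, 111, 204 and 262 FPKM. These followed the order of the class II chains. *B2m*, the light chain that pairs with them, did not, and was highest in wild-type parietal bone at 1065 FPKM against 634 to 717 FPKM. Between the parietal bones 8 of the 10 class I genes that reached 1 FPKM were higher in the labelled Twist1+/- library. *B2m* (-0.60) and *Erap1* (-1.35) were lower, and each has a GC content of 41.2%. In the GC group with a median of 41.4% the median log2 ratio of all genes was -0.60, so that *Erap1* lay below it. Between the wild-type bones *B2m* had a log2 ratio of 0.57, where the GC group with a median of 41.3% had a median of 0.12. The part of base composition in the values of *B2m* and *Erap1* was not tested. *Nlrc5*, which plays for class I genes the part that *Ciita* plays for class II, was at 1.96 FPKM in the wild-type frontal library and 0.453 FPKM in the wild-type parietal library and was the only class I gene past 3-fold (-2.11). The median log2 ratio of the class I list was 0.83 between the parietal bones and -0.78 between the wild-type bones, beside 0.98 and -0.89 for the 9 class II genes. The class I medians cover only genes that reached 1 FPKM in the pair. Over the 8 class II genes that did so the medians were 1.05 and -0.82. With GC medians subtracted, the class I median between the parietal bones was 0.34 over genes at 1 FPKM, and the class II median was 0.85 over all 9 genes. The difference between the lists was not tested.

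All genes were searched for the pattern of *Cd74* and the chains. Each gene that reached 10 FPKM somewhere was centred on its mean log2(FPKM + 1) over the 4 libraries, and its Euclidean distance to the mean profile of *H2-Aa*, *H2-Ab1*, *H2-Eb1* and *Cd74* was taken. Of 7959 genes other than these 4, the nearest were *Hspg2* (a distance of 0.0418), *Arl4d* (0.0658), *Gas2l1* (0.123), *H2-K1* (0.125) and *Sf3a2* (0.126). *Tap2* was at rank 6 and *H2-D1* at rank 10, but *B2m* at rank 5888, so that class I genes lay both near and far. *B2m* has a GC content of 41.2%, against 55.9% to 56.9% for *H2-K1*, *H2-D1* and *Tap2*. GC medians were not subtracted before this search. *Hspg2* was at 25.1 FPKM in the wild-type frontal library, 13.2 FPKM in the wild-type parietal library, 26.8 FPKM in the Twist1+/- frontal library and 36.3 FPKM in the labelled Twist1+/- parietal library. The nearest genes had GC contents of 55.7% to 63.8%. The 4 genes that made the profile differed among themselves, and their own distances would place *H2-Eb1* at rank 48, *H2-Ab1* at 166, *H2-Aa* at 304 and *Cd74* at 707. On the same distance *H2-DMa* (rank 326) and *H2-Oa* (702) lay within the range of these 4, and *H2-Ob* (2744), *Ciita* (2747) and *H2-DMb1* (3428) lay outside it. Of these, only *H2-DMb1* reached the 10 FPKM of the search. The added 1 FPKM flattens low genes. Between the wild-type bones it took *Ciita* from -1.30 to -0.47 and *H2-Oa* from -1.15 to -0.76. The ranks of *H2-DMa*, *H2-Oa*, *H2-Ob* and *Ciita* are therefore not comparable with those of the chains. Over 4 libraries many genes come close to any profile, and the ranks are a description.

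Of the 9 genes, 7 lie on chromosome 17 of mm9, between 34229285 and 34453144. *Cd74* lies on chromosome 18 and *Ciita* on chromosome 16. The segment of chromosome 17 holds 13 genes with values, in the order *H2-Oa*, *Brd2*, *H2-DMa*, *H2-DMb2*, *H2-DMb1*, *Psmb9*, *Tap1*, *Psmb8*, *Tap2*, *H2-Ob*, *H2-Ab1*, *H2-Aa* and *H2-Eb1*. All 6 neighbours that are not among the 9 were higher in the labelled Twist1+/- parietal than in the wild-type parietal library, with log2 ratios of 0.47 (*Psmb8*, an immunoproteasome subunit) to 2.14 (*H2-DMb2*). All 6 were also lower in wild-type parietal than in wild-type frontal bone, from -1.69 (*H2-DMb2*) to -0.24 (*Brd2*, a bromodomain protein). The neighbours have GC contents of 52.9% to 57.3%. Over all genes, the GC groups with medians of 53.1% to 57.8% had median log2 ratios of 0.12 to 0.55 between the parietal bones. *Psmb9*, *Tap1*, *Psmb8* and *Tap2* also belong to the class I list described above. *H2-DMb1* was the only gene of the segment that was higher in wild-type parietal than in wild-type frontal bone. The genes of the segment had GC contents of 51.0% to 57.4%, except *H2-Ob* at 46.1%. The annotated spans of *H2-Ab1* (34400154 to 34406363, forward strand) and *H2-Aa* (34406276 to 34424772, reverse strand) overlap at their ends. The libraries were stranded, but whether strand was used in counting is not given, so reads from the shared bases could belong to either gene.

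**Figure D5:**
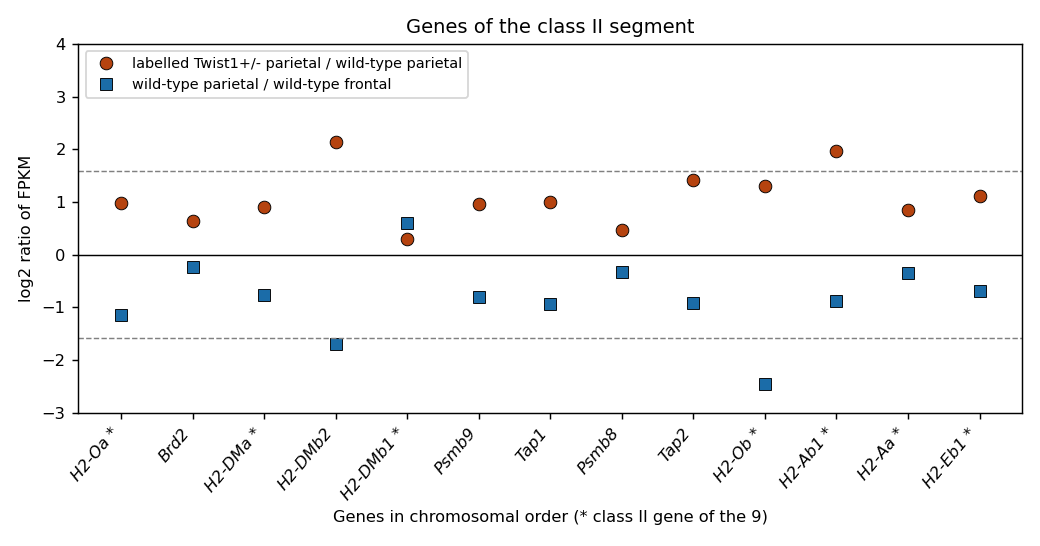
Log2 ratios of FPKM of the 13 genes of the class II segment in their order on the chromosome, for the labelled Twist1+/- parietal over wild-type parietal library (circles) and wild-type parietal over wild-type frontal bone (squares). Circles lie above 0 and squares below 0 for 12 of the 13 genes, and at *H2-DMb1* both lie above 0.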

How the data were processed

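The authors isolated total RNA, made stranded poly(A) libraries and sequenced single-end reads of 75 bases. Per the labels and methods, reads were aligned to mm9 with STAR 2.4.2a, and Cuffdiff (Cufflinks 2.2.1) gave the deposited FPKM values, 1 per gene and library. The scaling option and the pooling of animals or replicates are not given in the sources used here. Libraries were grouped by source name. FPKM ratios were formed with Python 3.11.15 and pandas 2.3.3. Genes at 0 on one side counted as past 3-fold if the other value reached 1 FPKM. With 1 library per group no test was run. GC content, positions and shared windows came from the GENCODE M1 annotation of mm9, with a GC value for 80.8% of genes, and promoters from RefSeq (GRCm38.p6). The procedures were tested on simulated data.

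The 9 genes and all lists were chosen with earlier results of these data known. Named from each list were the most abundant gene and up to 5 genes past 3-fold, with the 5 genes nearest in pattern and the genes of the chromosome 17 segment. *Nfya*, *March1*, *H2-D1*, *Ifng*, *Cd207*, *Cd4*, *Batf3*, *Itgax*, *Zbtb46* and *Erap1* were named outside this rule, after their values were seen. *H2-Eb2* and *H2-Ea-ps* were also named outside it, as were *Bglap* and *Sp7*, in place of *Spp1*, the most abundant osteoblast marker. Some genes were named only to say what a list holds. Alternatives were pseudocounts of 1 and 0.1 FPKM, 2 scalings, subtraction of GC medians, no floor and a floor of 10 FPKM. Scaling to *Ptprc*, and GC subtraction for the lists, were added after the data were seen.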

Additional observations from a re-analysis of the deposited data

Results flagged for a closer look

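For 6 genes a contrast had opposite signs in its 2 settings. With 1 library each, none of these differences was tested, and values near 0 change sign easily. Between wild-type parietal and frontal bone the log2 ratio was negative, and between the libraries labelled Twist1+/- it was positive, for *H2-Aa* (a difference of -0.80), *H2-Ab1* (-1.78), *H2-Eb1* (-1.07), *H2-Oa* (-1.51) and *Cd74* (-1.99). Between the Twist1+/- and wild-type labels the ratio was positive in parietal and negative in frontal bone for *H2-Oa* (a difference of 1.51), *H2-Ob* (1.78) and *Cd74* (1.99). The differences of *H2-Oa* and of *Cd74* are the same 4 values read in 2 ways. The *Cd74* ratio of -0.02 between the frontal bones turned to 0.02 and 0.09 under the 2 scalings. Between the libraries labelled Twist1+/- its ratio of 0.22 turned to -0.03 after subtraction of the GC medians. The opposite signs of *Cd74* therefore depend on the setting. Those of the chain genes do too. Scaled to the same *Ptprc* value, *H2-Aa* (0.79), *H2-Ab1* (0.26) and *H2-Eb1* (0.45) turned above 0 between the wild-type bones. Between the libraries labelled Twist1+/- they stayed above 0 (1.47, 1.92 and 1.40), so their opposite signs were lost. Under that scaling *H2-Oa* (-0.0078 and 1.38) and *Cd74* (-0.63 and 1.24) kept theirs.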

How the results depend on the processing

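Of 180 log2 ratios of single genes under the other pseudocounts, the scalings and the GC subtraction, 173 kept their direction and their side of 3-fold, 3 fell under 3-fold, 1 passed it and 3 changed sign from values within 3-fold. With GC medians subtracted, the count of class II genes past 3-fold was 1 between the parietal bones and 1 between the wild-type bones, in place of 2 each. A floor of 10 FPKM left 1 gene, *Cd74*, between the wild-type bones, because *H2-Ob* is under that floor. When the libraries were scaled to the same *Ptprc* value, chosen after seeing the data, 1 gene (*H2-DMb1*) was past 3-fold and higher in wild-type parietal than in wild-type frontal bone and the median of the 9 turned to 0.26. The median between the frontal bones then turned to -0.082, and 2 genes, *H2-Ab1* and *H2-DMb1*, were past 3-fold and higher in the labelled Twist1+/- parietal than in the Twist1+/- frontal library. *Ptprc* has a lower GC content (41.9%) than each of the 9 genes, and GC medians were not subtracted before this scaling. In the comparison of parietal bones the median stayed between 0.73 and 1.12 under all settings run, the floors included. No paired analysis was possible because each condition has 1 library. The depth of each library cannot be read from FPKM, so no counting error is given.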
